A study of Mus musculus with 6 samples.

Results

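Transcripts of the complement system were examined in the mouse lacrimal gland (LG), which secretes the aqueous part of the tear film. A set of 9 genes was taken by symbol, with earlier results of these data known, and each had 1 row among the 12491 genes of the table. They were, for the classical pathway, the C1q chains C1qa, C1qb and C1qc, the proteases C1ra and C1s1 and the component C4b. For the alternative pathway they were C3 and Cfb, and for the regulators Cd55. All 9 passed the filter on low values, a mean of at least 0.5 FPKM (a level scaled to transcript length and library size) in 1 group, as did 12135 genes in all. Poly(A) RNA came from 3 T2DM and 3 vehicle samples of C57BL/6 mice, labelled with an age of 24 weeks. By the study's methods the mice were male. The T2DM group received a high-fat diet, then streptozotocin (STZ), a toxin of the insulin-producing cells, and went back to the high-fat diet, whereas the vehicle group ate a normal diet and was injected with citrate buffer. Those methods place the collection 24 weeks after the last STZ injection, which differs from the labelled age. Diet and STZ were given together, so their effects cannot be told apart, and the number of mice behind each library is not given in the sources used here. The p-values therefore measure the spread between these libraries, which may be technical. Values of single libraries are given in the order of replicates 1, 2 and 3, vehicle first. The acinar marker list of the LG summed to 63041 FPKM or more in all 6 libraries, of which Obp1a made up 99.4%.

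Complement is a cascade of plasma and tissue proteins that marks targets for uptake and lysis. In the classical pathway C1q binds antibody or other ligands, the proteases C1r and C1s become active and cleave C4 and C2, and a C3 convertase forms. In the alternative pathway factor B joins activated C3 to form a further convertase that amplifies the reaction, and CD55 speeds the decay of both convertases on host cells. The liver makes most circulating complement, while C1q comes mainly from macrophages and related myeloid cells, and C3, factor B, C1r, C1s and C4 are also made by fibroblasts and epithelia.

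The 9 genes lie on 4 chromosomes, and their starts and ends in the table were those of GENCODE M21 on GRCm38. The 3 C1q genes stand side by side on the minus strand of chromosome 4, C1qb at 136880129 to 136886187, C1qc at 136889804 to 136893065 and C1qa at 136895917 to 136898803. C1ra (chromosome 6, 124512405 to 124523443, plus strand) and C1s1 (124530345 to 124542359, minus strand) are 6901 bases apart. C4b (chromosome 17, 34728380 to 34743882) and Cfb (34856374 to 34862518) lie on the minus strand of the same chromosome as C3 (57203970 to 57228136, minus strand), and Cd55 is on the minus strand of chromosome 1, from 130439027 to 130462744. All are protein-coding genes. RefSeq promoters on GRCm38.p6 were at hand for 6 of the 9, namely C1qb, C1qc, C1ra, C1s1, C3 and Cd55. The 250 bases before the RefSeq start site are shown for C1qb and C1qc, neighbours whose levels moved together between libraries, and for C3, the member with the largest difference between groups. For C1qc the RefSeq start site lies inside the GENCODE gene. The bases shown from 136892915 to 136893065 are therefore part of that gene. Capitals mark matches to the motif GAGGAA of PU.1, a myeloid transcription factor, to TTNNGNAA of C/EBP factors of acute-phase genes, or to the NF-kB motif, all searched on both strands.
C1qb, chr4:136886201-136886450, minus strand: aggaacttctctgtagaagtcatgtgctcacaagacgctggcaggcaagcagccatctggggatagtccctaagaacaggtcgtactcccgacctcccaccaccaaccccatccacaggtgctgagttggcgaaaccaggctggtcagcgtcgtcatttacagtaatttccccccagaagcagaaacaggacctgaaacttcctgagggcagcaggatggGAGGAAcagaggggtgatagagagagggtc
C1qc, chr4:136892915-136893164, minus strand: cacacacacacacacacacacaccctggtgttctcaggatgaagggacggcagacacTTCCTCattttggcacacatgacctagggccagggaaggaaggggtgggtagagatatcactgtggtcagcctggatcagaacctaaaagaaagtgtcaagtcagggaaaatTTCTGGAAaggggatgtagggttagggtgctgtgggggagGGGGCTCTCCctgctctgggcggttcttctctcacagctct
C3, chr17:57228137-57228386, minus strand: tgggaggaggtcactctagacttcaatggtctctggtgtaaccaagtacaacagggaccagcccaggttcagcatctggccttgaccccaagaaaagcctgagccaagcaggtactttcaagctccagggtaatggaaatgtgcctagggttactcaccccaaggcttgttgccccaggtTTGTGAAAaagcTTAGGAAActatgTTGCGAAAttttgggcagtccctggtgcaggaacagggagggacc
C1qb held a PU.1 match from -30 to -25 and C1qc from -193 to -188, counted from the start site, and 23.3% of 32851 RefSeq promoters of the same length held at least 1. C1qc also held an NF-kB match from -41 to -32 (7.25% of promoters) and a C/EBP match from -81 to -74 (36.8% of promoters), both inside its GENCODE gene. C3 held C/EBP matches from -70 to -63, from -58 to -51 and from -45 to -38. The promoters of C1ra and C1s1, which are not shown, held C/EBP matches as well. None of the 6 promoters held the interferon response motif GAAA, any 2 bases, GAAA (2.98% of promoters) or TTCNNNGAA of STAT factors (7.02%). A match is a run of letters and was not tested as a binding site.

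Several of these genes have near copies, which bears on how far their reads can be told apart. Among all 100-base windows of the longest coding transcript, 35.9% for C1ra, 16.5% for C4b, 7.9% for C1s1 and 6.86% for Cd55 also occur in transcripts of other genes, chiefly C1rb, C4a, C1s2 and Cd55b. For Cfb the share is 81.0%, all with Gm20547, an annotated read-through gene that overlaps it on the same strand. No window of C1qa, C1qb, C1qc or C3 is shared. C1ra and C1rb are 98.0% identical over 2118 aligned coding bases, and their first 90 coding bases are shown to give an idea of how few bases separate them, with the 1 base that differs in capitals.
C1ra: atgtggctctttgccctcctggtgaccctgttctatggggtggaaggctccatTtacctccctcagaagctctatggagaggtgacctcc
C1rb: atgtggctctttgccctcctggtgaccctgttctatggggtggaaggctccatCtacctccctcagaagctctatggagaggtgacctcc
Values of C1ra, C4b, C1s1, Cfb and Cd55 are uncertain for this reason. A share of windows is not an error of FPKM, and the size of that error was not worked out.

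One vehicle library stood apart in all 9 genes. Vehicle replicate 1 held the lowest FPKM of the 6 libraries for 9 of 9 members, against 22.3% of all tested genes, and the lowest of the 3 vehicle libraries for 9 of 9, against 29.8%. The vehicle libraries followed one order, replicate 1 below 3 and 3 below 2, for 9 of 9 members against 16.8% of tested genes. Levels in vehicle replicate 1 were between 39.8% (Cfb) and 63.0% (C1ra) of the mean of vehicle replicates 2 and 3, whereas the median of all tested genes was 104%. The T2DM libraries shared no such order. This library also differed in cell markers: the summed FPKM of 14 macrophage markers was 266 in it against 544 and 461 in vehicle replicates 2 and 3, and that of 10 fibroblast markers was 66.6 against 115 and 117. The neutrophil list stood at 44.8% of the other vehicle libraries, the T and NK cell list at 66.8%, the dendritic cell list at 68.5%, the endothelial list at 76.0%, the B cell list at 84.1% and the erythroid list at 84.3%, while the duct list stood at 101%. The acinar list stood at 93.0%, which is nearly the value of Obp1a alone, and its other 5 genes together at 121%. Without their most abundant gene the macrophage list stood at 56.5% and the fibroblast list at 54.7%. Transcripts of salivary glands were the reverse, with a summed FPKM of 2236 in vehicle replicate 1 and from 0.394 to 11.01 in the other 5 libraries. The part of these differences in the complement levels was not tested, and the fold change of each member is given below with and without vehicle replicate 1. In bulk tissue, fewer cells of a type and less RNA per cell cannot be told apart.

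**Figure D1:**
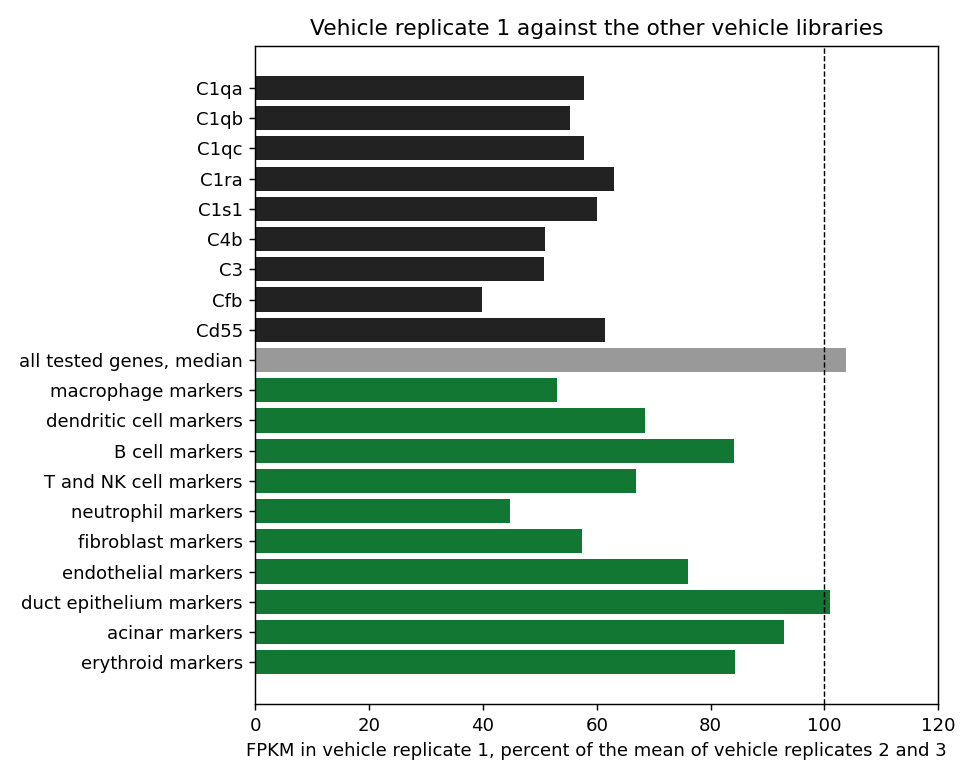
FPKM of each complement gene (black) and summed FPKM of each marker list (green) in vehicle replicate 1, in percent of the mean of vehicle replicates 2 and 3, with the median of all tested genes in grey and 100% dashed. The 9 complement genes lie between 39.8% and 63.0%, while duct markers lie at 101%. The acinar value of 93.0% is nearly that of Obp1a alone. The salivary gland list is off the scale and is not drawn, nor are the adipocyte and hepatocyte lists, of which few genes are in the table.

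No member passed the test between T2DM and vehicle LGs. With limma on log2(FPKM + 1) and Benjamini-Hochberg adjustment over 12135 genes, 0 of the 9 members were higher and 0 lower at an adjusted p under 0.05, whereas 10.5% of all tested genes were higher and 1.7% lower. At an unadjusted p under 0.05, 1 member, C3, was higher and none was lower, against 28.5% and 4.57% of tested genes. By a linear model without moderation 0 members passed either p. The median log2 fold change of the members was 0.21, and that of all tested genes was 0.16. Without vehicle replicate 1 the members' median was -0.07 and 3 of 9 fold changes were above 0, compared with 7 of 9 in all 6 libraries, while the median of all genes was 0.16 again. When libraries were scaled by the median of ratios, the members' median was 0.03 and that of all genes 0.00, and 1271 higher and 206 lower calls over all genes became 476 and 484. The T2DM libraries lay above all vehicle libraries for 2 of 9 members, C3 and C1qc, against 33.8% of tested genes, and below them for 0 of 9, against 6.1%.

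**Figure D2:**
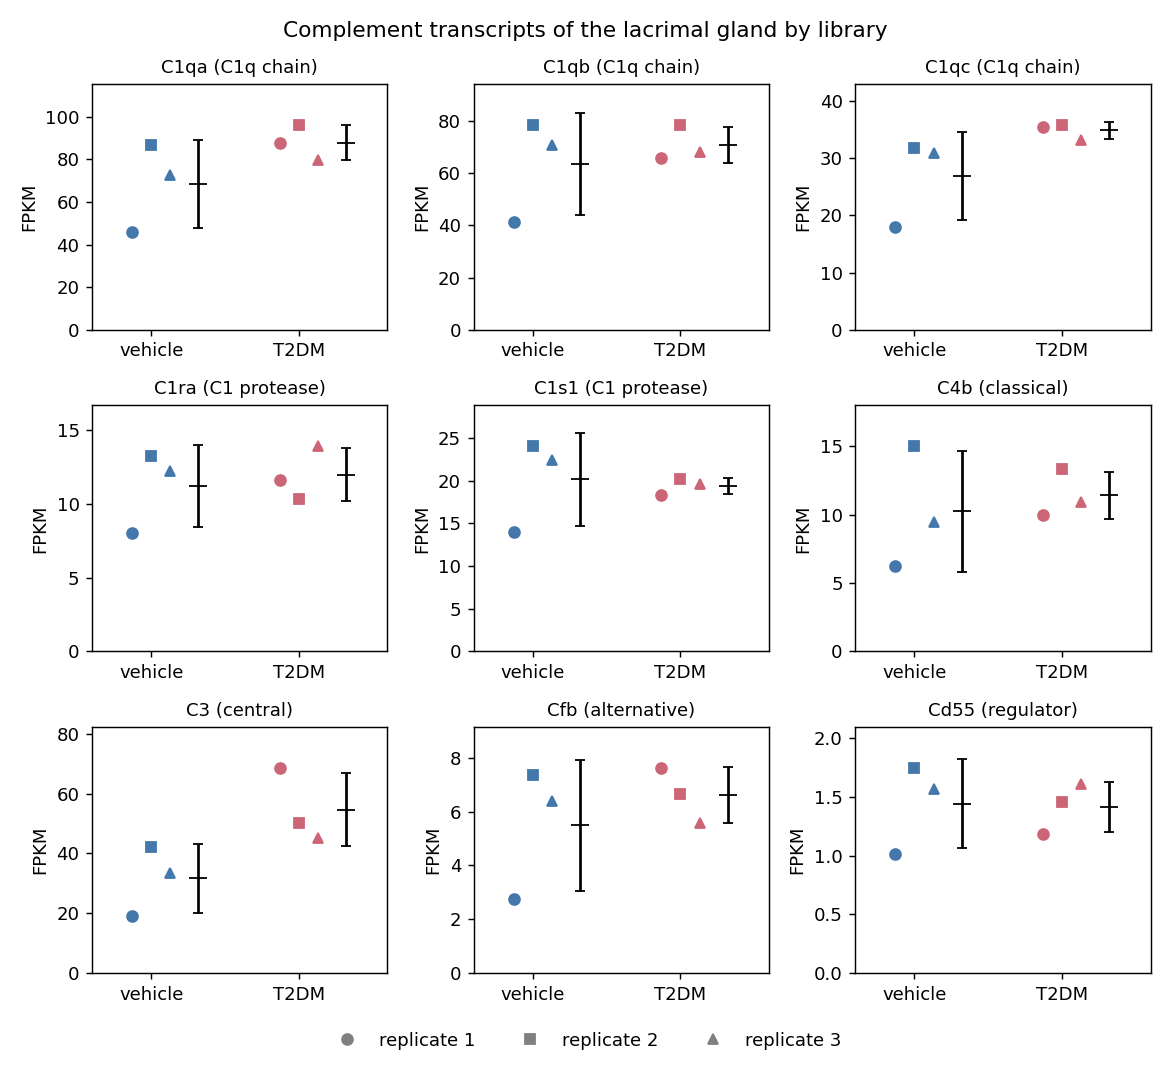
FPKM of the 9 complement genes in each library, with vehicle in blue, T2DM in red and a marker shape for each replicate number, which pairs no samples. Black bars give the mean and SD of 3 libraries, and every axis starts at 0. Vehicle replicate 1 is the lowest point of all 9 panels, and the groups separate only for C1qc and C3.

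The 3 chains of C1q, the recognition molecule of the classical pathway, were among the more abundant transcripts, and their differences between groups were smaller without vehicle replicate 1. C1qa, the A chain, was at 45.9, 86.5 and 72.5 FPKM in vehicle libraries, against 87.5, 96.2 and 79.8 FPKM in T2DM libraries. The groups overlapped, since vehicle replicate 2 lay above T2DM replicate 3. The means were 68.3 ± 20.7 and 87.8 ± 8.2 FPKM (SD, n = 3 per group), and the log2 fold change was 0.40 (standard error 0.21, adjusted p = 0.226 from limma), and 0.14 without vehicle replicate 1. C1qb, the B chain, was at 41.2, 78.3 and 70.9 FPKM in vehicle libraries, against 66.0, 78.6 and 67.9 FPKM in T2DM libraries. The groups overlapped, with vehicle replicates 2 and 3 inside the T2DM range. Its log2 fold change was 0.20 (95% confidence interval -0.31 to 0.72), and -0.08 without vehicle replicate 1. C1qc, the C chain, was at 18.0, 31.7 and 30.8 FPKM in vehicle libraries, against 35.5, 35.8 and 33.2 FPKM in T2DM libraries, so that all T2DM libraries lay above all vehicle libraries. The log2 fold change of 0.40 (95% confidence interval -0.06 to 0.86, adjusted p = 0.195 from limma) was 0.15 without vehicle replicate 1 and -0.06 when that library was left out and the others were scaled by the median of ratios.

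The chains kept close proportions while their levels ranged widely. The summed C1q level was 105, 197 and 174 FPKM in vehicle libraries, against 189, 211 and 181 FPKM in T2DM libraries. The ratio of C1qa to C1qc lay between 2.35 and 2.73 in all 6 libraries, with a coefficient of variation of 5.99%. For C1qa to C1qb it was 9.1% and for C1qb to C1qc 9.75%. The coefficient of variation of the single chains was 20.5% to 22.6%. C1qb was lower relative to the other chains for T2DM: the ratio of C1qb to C1qc was 2.35 ± 0.10 for vehicle and 2.03 ± 0.17 for T2DM (SD, n = 3 per group), with no overlap. Such ratios within a library do not depend on the scaling between libraries, and no test was run on them. These ratios of chains were chosen after values were seen, and how often ratios of other genes separate the groups was not worked out.

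C1q was set against macrophage markers, because macrophages are its main known source. Of the 15 markers listed, 14 were in the table and 13 were tested, and by limma's adjusted p 0 were higher and 0 lower, with 4 higher at an unadjusted p (against 28.5% of all tested genes) and a median log2 fold change of 0.17. Csf1r, the growth factor receptor of macrophages, was at 4.57, 8.37 and 8.13 FPKM in vehicle libraries, against 12.2, 9.93 and 12.01 FPKM in T2DM libraries. Lyz2, the lysozyme of myeloid cells, was at 132, 290 and 240 FPKM and at 145, 177 and 195 FPKM. The mean of Csf1r was higher and that of Lyz2 lower for T2DM, and neither passed the adjusted p. The summed markers were at 266, 544 and 461 FPKM in vehicle libraries, against 347, 412 and 414 FPKM in T2DM libraries. Lyz2 made up 48.3% of this sum over the 6 libraries. C1q relative to this sum was 0.378 ± 0.017 for vehicle and 0.498 ± 0.055 for T2DM (SD, n = 3 per group), and the groups did not overlap. Vehicle replicate 1, at 0.395, was close to the 0.361 and 0.378 of the other vehicle libraries on this ratio. With Lyz2, Ctss and Tyrobp left out, which other leukocytes also use, the ratio was 2.68 ± 0.04 and 2.90 ± 0.28 and the groups overlapped.

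The proteases that C1q activates did not pass the adjusted p. C1ra, the mouse C1r, was at 8.02, 13.3 and 12.2 FPKM in vehicle libraries, against 11.6, 10.3 and 13.9 FPKM in T2DM libraries. The log2 fold change was 0.11 (95% confidence interval -0.32 to 0.54), and -0.09 without vehicle replicate 1. C1s1, which cleaves C4 and C2, was at 13.97, 24.1 and 22.5 FPKM in vehicle libraries, against 18.3, 20.2 and 19.7 FPKM in T2DM libraries, where all 3 libraries lay between the vehicle extremes. Its log2 fold change was -0.02 (95% confidence interval -0.45 to 0.41, adjusted p = 0.953 from limma). Without vehicle replicate 1 it was -0.25 (standard error 0.09, adjusted p = 0.129 from limma), and with the median of ratios as well it was -0.46 (standard error 0.10, adjusted p = 0.0703 from limma), both past an unadjusted p of 0.05. Relative to the summed fibroblast markers, C1s1 was between 0.178 and 0.210 in all 6 libraries, with a coefficient of variation of 6.08% against 17.7% for its FPKM. Of the 10 fibroblast markers, 0 were higher and 0 lower at the adjusted p, with 2 higher at an unadjusted p (against 28.5% of all tested genes). C4b, which becomes part of the classical C3 convertase, was at 6.23, 15.0 and 9.48 FPKM in vehicle libraries, against 9.999, 13.3 and 10.9 FPKM in T2DM libraries. Vehicle replicates 1 and 2 were the lowest and the highest of all 6, and the log2 fold change was 0.21 (95% confidence interval -0.40 to 0.82), and -0.07 without vehicle replicate 1.

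C3, on which all pathways converge, had the largest difference of the 9 genes, and it missed the adjusted threshold. C3 was at 19.2, 42.2 and 33.5 FPKM in vehicle libraries, against 68.6, 50.0 and 45.3 FPKM in T2DM libraries. All T2DM libraries lay above all vehicle libraries, with T2DM replicate 1 highest. The means were 31.6 ± 11.6 and 54.6 ± 12.3 FPKM (SD, n = 3 per group), a ratio of 1.73, and the log2 fold change was 0.82 (standard error 0.28, 95% confidence interval 0.18 to 1.46, adjusted p = 0.08845 from limma). Over 18 other settings the log2 fold change was between 0.29 and 1.05 and above 0 in each, and the adjusted p was between 0.036 and 0.309. It passed under 1 of them, scaling by the sum without the 10 most abundant genes. Without vehicle replicate 1 the log2 fold change was 0.51 (adjusted p = 0.137) and without T2DM replicate 1 it was 0.64 (adjusted p = 0.244). With the median of ratios and without vehicle replicate 1 it was 0.29. C3 was also higher relative to C1q, although no test was run on this ratio: its ratio to summed C1q was 0.183, 0.215 and 0.192 for vehicle, against 0.363, 0.2375 and 0.2505 for T2DM. These groups do not overlap, and T2DM replicate 1 stands well above the rest. For single genes, 33.8% of those tested had all T2DM libraries above all vehicle libraries, and no such share was worked out for ratios. The ratios of C3 to C1q, Cfb and C4b were chosen after values were seen. They share C3, so they are not separate results.

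**Figure D3:**
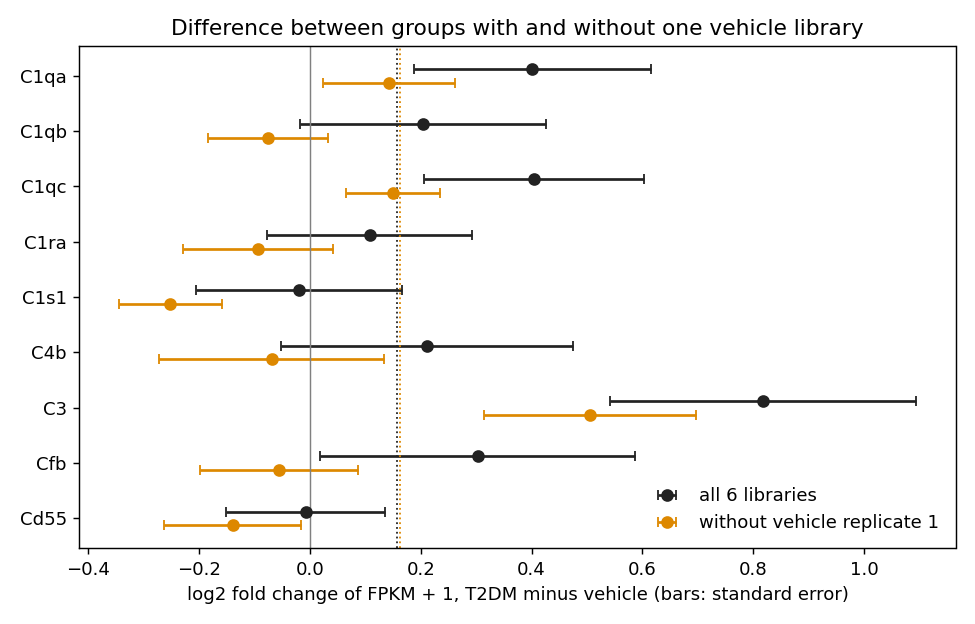
Log2 fold change of each complement gene on the log2(FPKM + 1) scale with its standard error, from all 6 libraries (black) and without vehicle replicate 1 (orange), with the median of all tested genes dotted. Without that library every estimate moved to the left, and C3, at 0.51, was the only one above the dotted line.

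Cfb, which encodes factor B, overlapped between groups. It was at 2.74, 7.35 and 6.40 FPKM in vehicle libraries, against 7.63, 6.65 and 5.57 FPKM in T2DM libraries, so that vehicle replicates 2 and 3 lay among the T2DM libraries. The log2 fold change was 0.30 (95% confidence interval -0.36 to 0.96, adjusted p = 0.479 from limma), and -0.05 without vehicle replicate 1. The ratio of C3 to Cfb was 5.99 ± 0.92 for vehicle and 8.22 ± 0.74 for T2DM (SD, n = 3 per group), without overlap. Cd55, the membrane regulator, was the lowest of the 9 in every library, at 1.02, 1.75 and 1.57 FPKM in vehicle libraries, against 1.19, 1.46 and 1.61 FPKM in T2DM libraries. The T2DM libraries lay within the vehicle range. Its log2 fold change was -0.01 (95% confidence interval -0.34 to 0.33, adjusted p = 0.977 from limma), and -0.14 without vehicle replicate 1.

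The order of levels was nearly the same in all libraries. Over the 6 libraries the mean was 78.1 FPKM for C1qa, 67.15 for C1qb, 43.1 for C3, 30.9 for C1qc, 19.8 for C1s1, 11.6 for C1ra, 10.8 for C4b, 6.06 for Cfb and 1.43 for Cd55. C1qa ranked first and Cd55 last in each library. The neighbours C1ra and C4b changed places in vehicle replicate 2 and T2DM replicate 2, and C3 passed C1qb in T2DM replicate 1 only. C1qa stood above 97.4% and Cd55 above 18.9% of tested genes.

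**Figure D4:**
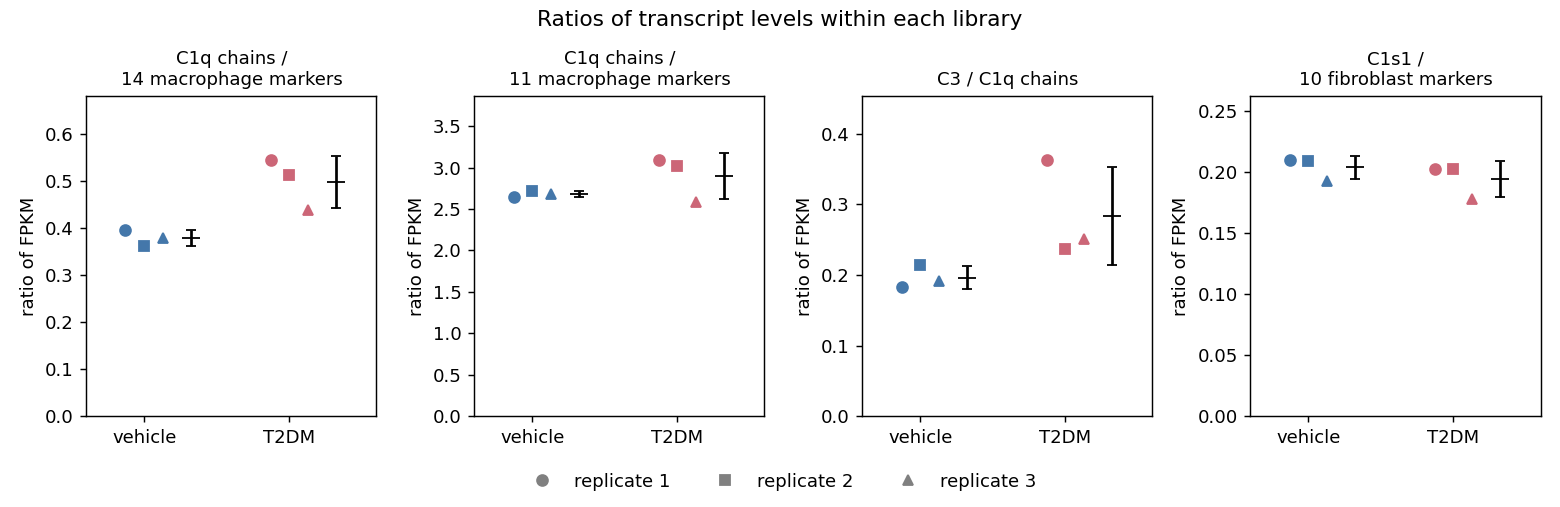
Ratios of FPKM within each library, in vehicle (blue) and T2DM (red), for C1q against 14 and against 11 macrophage markers, C3 against C1q, and C1s1 against 10 fibroblast markers. Black bars give mean and SD of 3 libraries, and every axis starts at 0. C1q against 14 markers and C3 against C1q separate the groups, while C1q against 11 markers and C1s1 against fibroblast markers overlap.

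Of the other complement genes, clusterin (Clu) rose, C1rb passed as lower in some settings only, and the rest did not pass. Of 48 other genes of the pathway, 26 symbols were in the table with 27 rows, all tested. By limma's adjusted p 1 of 27 rows was higher and 1 lower, against 10.5% and 1.7% of all tested genes, with a median log2 fold change of 0.12 against 0.16 for all tested genes. At an unadjusted p 6 were higher and 2 lower, against 28.5% and 4.57% of all tested genes. Clu, a secreted chaperone that also inhibits the membrane attack complex, was at 32.3, 40.2 and 39.8 FPKM in vehicle libraries, against 139, 117 and 121 FPKM in T2DM libraries. No T2DM library came near the vehicle libraries, and the log2 fold change was 1.72 (standard error 0.12, adjusted p = 0.00133 from limma), and 1.62 without vehicle replicate 1 (adjusted p = 0.00327). It passed under 17 of 18 other settings, and not by the linear model without moderation (adjusted p = 0.0820). Of 9 tested duct epithelium markers 5 were higher at the adjusted p, against 10.5% of all tested genes, with a summed FPKM of 769 to 839 for vehicle and 1006 to 1273 for T2DM. Their part in the levels of Clu and C3 was not tested.

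C1rb, the copy of C1ra, was at 0.351, 0.747 and 1.68 FPKM in vehicle libraries and was listed at 0 in all 3 T2DM libraries. It passed limma's adjusted p (adjusted p = 0.0453) and passed under 8 of 17 other settings. The call was lost without vehicle replicate 2, vehicle replicate 3 or any 1 of the T2DM libraries, and the adjusted p with 1 library left out was 0.0454 to 0.121. A listed 0 can be a failed estimate, and C1ra plus C1rb came to 12.1 ± 3.2 FPKM for vehicle and 11.9 ± 1.8 FPKM in T2DM libraries (SD, n = 3 per group). C1s2, the copy of C1s1, was at 0.539 ± 0.073 and 0.550 ± 0.352 FPKM. C4a and Cd55b were not analysed here.

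Other steps of the cascade differed in direction without passing. Cfd, the protease that activates factor B and a known adipocyte product, was at 3.01, 4.798 and 3.60 FPKM in vehicle libraries, against 0.675, 1.97 and 2.37 FPKM in T2DM libraries, all T2DM libraries below (adjusted p = 0.0643 from limma). Fabp4 was the single adipocyte marker in the table, at 0.781 to 0.953 FPKM for vehicle and 0.455 to 1.21 FPKM in T2DM libraries. Among 5 terminal components, Hc, C6 and C9 were higher and none lower at an unadjusted p, against 28.5% and 4.57% of all tested genes, and the highest of their group means was 1.46 FPKM. The receptor C3ar1 was at 1.88, 3.78 and 3.49 FPKM in vehicle libraries, against 3.97, 4.37 and 3.84 FPKM in T2DM libraries, with an adjusted p of 0.230 by limma. The receptor C5ar1 was at 1.53 ± 0.49 and 1.64 ± 0.31 FPKM (SD, n = 3 per group). C5ar2 and Cr2 were not analysed here.

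**Figure D5:**
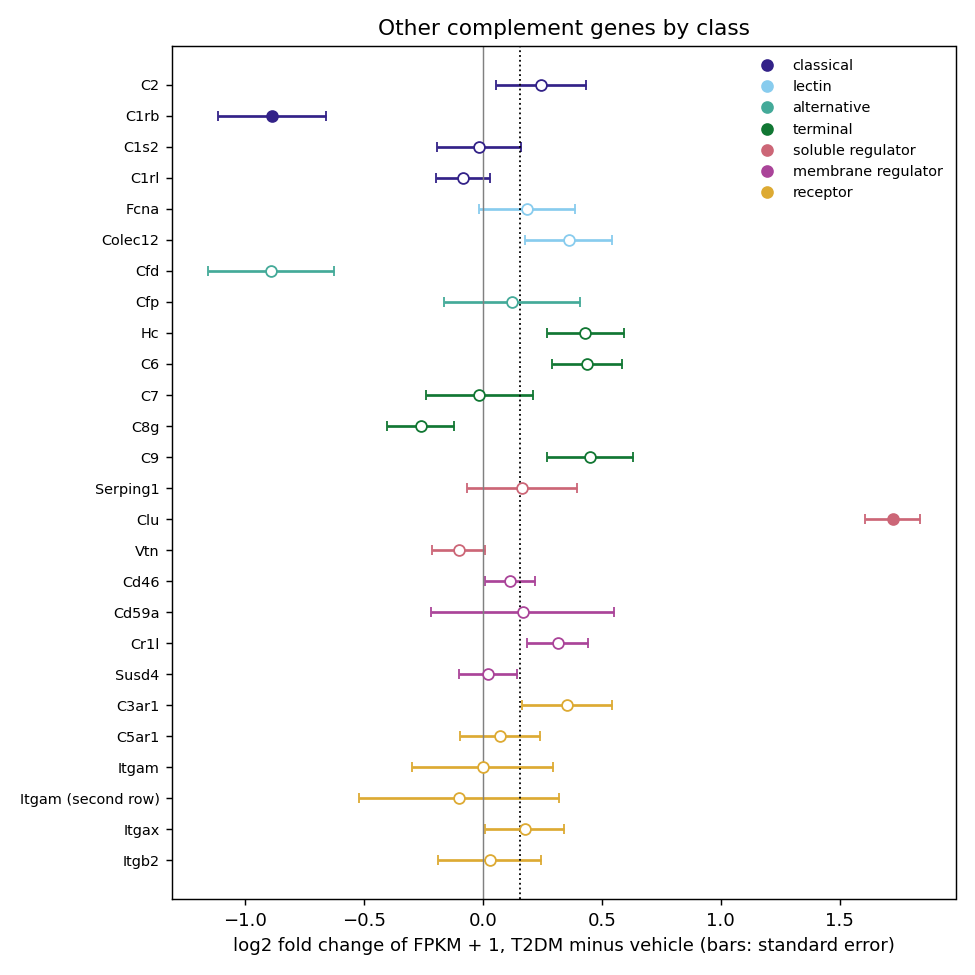
Log2 fold change on the log2(FPKM + 1) scale, with standard error, of 26 of the 27 rows of other complement genes, coloured by class, filled where the adjusted p is under 0.05. The dotted line is the median of all tested genes. Clu at 1.72 and C1rb at -0.89 are filled.

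Genes with the most similar profile over the 6 libraries were sought among the 5501 genes with a mean of at least 5 FPKM, by Pearson r of log2(FPKM + 1). The 6 libraries are few and share the low vehicle library, so the values are a description. Nearest to the mean of the C1q chains were Tyrobp, a signalling adaptor of myeloid cells (r = 0.996), the chemokine Ccl6 (0.987), Rcbtb1 (0.986), Ecd (0.9845) and the cholesterol carrier Npc2 (0.980). Nearest to C3 were the interferon-induced GTPase Gbp2 and Zfr (both 0.991), Tgfbi (0.984), Stx4a (0.983) and the interferon-induced Samd9l (0.979). Nearest to Cfb were Cyth4 (0.996), Htra1 (0.976), Alg1 (0.972), Ccl6 (0.970) and Ecd (0.968). Nearest to Cd55 were the metalloprotease Mmp3 (0.991), the lectin Clec4a3 (0.990), the macrophage marker Cd68 (0.981), the leukocyte tetraspanin Cd53 (0.976) and the lipase Lpl (0.9747). Pearson r does not reflect the size of a change. Zfr, at 8.92 to 10.5 FPKM, and Ecd, at 5.22 to 5.83 FPKM, varied little over the 6 libraries.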

How the data were processed

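RNA-seq of 3 vehicle and 3 T2DM LG samples was used, grouped by the sample titles. The authors deposited gene-level FPKM from StringTie 1.2.3 and Ballgown 2.6.0, after read trimming (cutadapt) and HISAT2 alignment to GRCm38. The submitters' processing notes name hg19 and GRCh37, but 10917 of the 12491 gene IDs had the version, start and end of mouse GENCODE M21. Read depth was not worked out here, and FPKM of one gene depends on the abundance of the others.

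Groups were compared with limma 3.58.1 (R 4.3.3) on log2(FPKM + 1), which lowers the fold changes of low genes, using a mean-variance trend, a filter of 0.5 FPKM (group mean, 1 group or more), Benjamini-Hochberg adjustment and a threshold of 0.05. The code was tested on simulated data. Members, lists and tests were chosen with earlier results of these data known. Named were the 9 members, other complement genes past the adjusted p, copies (C1rb, C1s2, C4a, Cd55b), receptors (C3ar1, C5ar1, C5ar2, Cr2) and the 5 most similar genes per profile. Csf1r, Lyz2, Fabp4, Cfd, Hc, C6 and C9, and the ratios other than C1q to macrophage markers, were chosen after values were seen. Other pseudocounts, filters, tests and scalings, blocking by replicate number and leaving out single libraries were tried. The 22 complement symbols outside the table were not analysed here, and 1 gene of the list is counted but not reported here by name.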

Additional observations from a re-analysis of the deposited data

How the results depend on the processing

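Over 18 other settings, 161 of 162 member values stayed on their side of the threshold. The exception was C3, which passed when libraries were scaled by the sum without the 10 most abundant genes, so that 1 member was called higher. The fold changes of C1qb, C1ra, C4b and Cfb, above 0 in the main fit, were below 0 without vehicle replicate 1. That of C1ra was also below 0 by the median of ratios (-0.08), the upper quartile (-0.06) and quantile normalization (-0.06). Those of C1s1 and Cd55, below 0 in the main fit, were above 0 in 4 of the 18 other settings each. The count of members with a fold change above 0 was 3 without vehicle replicate 1, 9 without vehicle replicate 2 or 3 or T2DM replicate 1, 7 without T2DM replicate 2 or 3, and 1 with the median of ratios and without vehicle replicate 1, a setting chosen after seeing the data. The other complement genes called higher were 4 by the sum without the 10 most abundant genes, 0 by the linear model (2 at an unadjusted p) and from 1 to 2 with 1 library left out, where C9 joined Clu without T2DM replicate 3. C1rb was not tested with a filter of 1 FPKM (0 lower), since its group means were 0.925 FPKM for vehicle and 0 for T2DM. It was tested and not called (0 lower) by the linear model (1 lower at an unadjusted p), by the median of ratios or by the upper quartile. With 1 library left out from 0 to 1 were lower. The difference in C1q relative to macrophage markers was 0.120 with 14 markers, against a vehicle mean of 0.378. With 11 markers it was 0.218, on another scale, against a vehicle mean of 2.68. In proportion to the vehicle mean, the difference was smaller with 11 markers. Over all genes the calls higher and lower were 0 and 0 by the linear model (2960 and 488 at an unadjusted p), 476 and 484 by the median of ratios, 537 and 420 by the upper quartile, 3345 and 172 by the sum without the 10 most abundant genes, 450 and 410 by quantile normalization, and 115 and 149 by the median of ratios without vehicle replicate 1. With 1 library left out they ranged from 25 to 885 and from 16 to 130, both lowest without vehicle replicate 3. Where not stated, the cause was not tested.

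Samples share only a replicate number: the correlation of same-numbered deviations across genes was 0.032, 0.016 and -0.002, and vehicle replicate 3 did not correlate best with its own number. With the replicate block 551 genes were higher and 98 lower, and 0 members were called. Of the other complement genes 1 was higher, Clu, and 1 lower, where Cfd (adjusted p = 0.0498 from limma) replaced C1rb (adjusted p = 0.0669). With 3 libraries a group, the standard errors of the 9 members were 0.14 to 0.28 on the log2 scale, which limits what could be detected.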

Other observations

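Complement transcripts were less spread in the T2DM than in the vehicle group for 8 of 9 members by SD, the exception being C3, and vehicle replicate 1 enters every vehicle SD. Relative to its mean, C3 was also less spread in the T2DM group, with a coefficient of variation of 22.5% against 36.7% for vehicle. The share of all tested genes with the smaller SD in the T2DM group was not worked out. The ratio of the highest to the lowest T2DM library was from 1.08 (C1qc) to 1.51 (C3), and that of the vehicle libraries from 1.65 (C1ra) to 2.69 (Cfb). The ratio of C1qa to C1qb was 1.08 ± 0.05 for vehicle and 1.24 ± 0.08 for T2DM (SD, n = 3 per group), with all T2DM libraries above. The ratio of C3 to C4b was 3.08, 2.81 and 3.53 for vehicle, against 6.86, 3.75 and 4.14 for T2DM. The ratio of Clu to C3 was 1.28 ± 0.37 and 2.34 ± 0.32 (SD, n = 3 per group), so Clu was higher relative to C3 as well.

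Among the marker lists, 3 of 6 tested B cell markers were higher, 1 of 9 T and NK cell markers was higher, 1 of 3 dendritic cell markers was lower and 3 of 5 erythroid markers were lower at limma's adjusted p, against 10.5% of all tested genes higher and 1.7% lower. The share of T and NK cell markers is near that background. Of 4 neutrophil, 12 endothelial, 6 acinar and 5 salivary gland markers 0 passed in either direction, although 2, 2 and 2 of the first 3 lists were higher at an unadjusted p, and 1 acinar and 1 salivary gland marker were lower, against 28.5% and 4.57% of all tested genes. Of the hepatocyte list 3 of 8 genes were in the table, with a summed FPKM of 3.72 to 4.39 for vehicle and 1.28 to 2.20 for T2DM. The single tested one, Ttr, made up 81.5% of the sum and was lower (log2 fold change -1.03, adjusted p = 0.0223 from limma).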
